A study of Homo sapiens with 30 samples.

Results

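TXNIP and 8 genes tied to it by family or pathway were followed through 30 libraries of SW1783 cells, a human astrocytoma line. The set held the alpha-arrestins TXNIP, ARRDC4, ARRDC2 and ARRDC3, the transcription factors MLXIP, MLXIPL and MLX, and the thioredoxins TXN and TXN2, which are 9 of the 60675 genes in the count table. The set was chosen by a readout: TXNIP stood far above every other library in cells given the Poria Cocos extract at 500 µg/mL, and the changes of TXNIP in both larger formulas were also known, so these values are a description and support nothing. The question was whether the high TXNIP of that library comes with other targets of MondoA and ChREBP.

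Cells were treated for 24 h with herbal extracts of Korean medicine or with 0.1% DMSO as the vehicle, as the sample labels give it; the text on the series' design gives 2% DMSO, and which applies to these libraries could not be settled. Doses were 20, 100 and 500 µg/mL. Palmul-tang and Sibjeondaebo-tang, extracted with water, were sequenced in 3 libraries per dose. Samul-tang, also a water extract, Poria Cocos and Atractylodis Rhizoma, the last pair extracted with ethanol, had 1 library per dose among these samples. The Samul-tang libraries are labelled replicate 3, and those of Poria Cocos and Atractylodis Rhizoma replicate 1. The vehicle had 3 libraries. Samul-tang is a formula whose herbs are part of Palmul-tang, and Palmul-tang in turn is part of Sibjeondaebo-tang. Poria and Atractylodis are herbs of both larger formulas.

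TXNIP binds thioredoxin and blocks it, and like ARRDC4 it lowers glucose uptake by drawing glucose transporters from the cell surface. Its transcription follows sugar supply: MondoA, encoded by MLXIP, and ChREBP, encoded by MLXIPL, pair with MLX, enter the nucleus when phosphorylated glucose is plentiful, and bind carbohydrate response elements, which are paired E-box-like motifs. TXNIP and ARRDC4 are well known MondoA targets in cultured cells, and ChREBP is known mainly for switching on glycolytic and lipogenic genes in liver.

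The promoter sequences of TXNIP and ARRDC4 are shown because they are the pair that stood out, and hold letters of the motif types searched for. Both come from RefSeq promoter windows on GRCh38.p14 and run 5′ to 3′ on the strand of the gene, from 250 to 31 bases before the start site; TXNIP lies at chr1:145996610-145996829 on the minus strand and ARRDC4 at chr15:97960453-97960672 on the plus strand. In TXNIP the capitals mark GTAAACA, a FOXO-type motif, and then both copies of CACGNG, 5 bases apart, which is the form of a carbohydrate response element searched for here. In ARRDC4 the capitals mark CACGTG, the E-box.
TXNIP: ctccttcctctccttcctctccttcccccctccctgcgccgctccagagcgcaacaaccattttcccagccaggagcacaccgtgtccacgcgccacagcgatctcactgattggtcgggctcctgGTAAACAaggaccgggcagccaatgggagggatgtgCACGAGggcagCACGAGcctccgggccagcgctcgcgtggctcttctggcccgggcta
ARRDC4: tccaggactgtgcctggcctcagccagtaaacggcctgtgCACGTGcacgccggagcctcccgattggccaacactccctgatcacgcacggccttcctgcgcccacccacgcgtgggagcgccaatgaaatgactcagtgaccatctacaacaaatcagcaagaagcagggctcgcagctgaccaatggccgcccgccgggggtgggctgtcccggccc

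Of the 9 members, 8 matched a promoter window of 300 bases, and TXN2 is named only. TXNIP, ARRDC2 and ARRDC3 had 2 windows each, and member matches and positions come from the one furthest upstream. Searched on both strands, the pair of CACGNG copies was in 20 of 35116 windows, or 0.057%, and TXNIP, where it begins at position -88 from the start site, was the only member among them. GTAAACA was in 3.42% of all windows and, among these furthest upstream windows of members, in that of TXNIP alone, at position -124. CACGTG, which also satisfies 1 copy of CACGNG, was in 7.26% of windows and in those of ARRDC4, at position -210, and MLX, at position -50. The motif CCAAT was in 34.6% of windows; TXNIP had 2 copies and ARRDC4 had 3. A match describes these letters only.

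TXNIP (ENSG00000265972, chromosome 1, 145992435 to 145996600 in GRCh38) stood at 9.66, 10.2 and 10.2 CPM (counts per 1000000, scaled with TMM factors) in the 3 vehicle libraries. In the Poria Cocos libraries it was at 8.415 CPM at 20 µg/mL, 17.7 at 100 and 198 at 500, from 249, 425 and 6106 counts. The 95% exact Poisson intervals, which cover counting error only, were 7.40 to 9.53, 16.04 to 19.45 and 193 to 203 CPM. The library at 100 µg/mL thus lay above all vehicle libraries and the library at 500 above every other library of the study. On the log2 CPM scale with a prior count of 2, the difference of 500 over 20 µg/mL was 4.55, or 23.4-fold, and 100 over 20 differed 2.09-fold. With 1 library per dose there is no replicate check.

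ARRDC4 (ENSG00000140450, chromosome 15, 97960698 to 97973838) went the same way at a lower level. It had 7.16, 6.39 and 6.93 CPM in the vehicle libraries, and in Poria Cocos 6.185 CPM at 20 µg/mL, 7.82 at 100 and 30.9 at 500. The interval at 500 was 28.97 to 32.93 CPM and that at 20 was 5.32 to 7.15, so they do not overlap. The difference of 500 over 20 µg/mL was 4.95-fold, with a log2 difference of 2.31. At 100 µg/mL the interval of 6.75 to 9.03 CPM overlapped that at 20.

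Over the 17839 genes that passed the filter on low counts, 9.26% were past 1.5-fold either way between Poria Cocos at 500 and 20 µg/mL, and 8.66% between 100 and 20. Of the 8 members that passed it, 2 were past this fold at 500 over 20, TXNIP and ARRDC4, and only TXNIP at 100 over 20. Against the vehicle mean, where the background was 8.96%, the same pair was past it. Most of these genes had few counts: among the 11574 genes that averaged 2 or more in log2 CPM, 0.605% were past 1.5-fold, 43 up and 27 down. Among those genes 0 had a larger rise than TXNIP and 1, which is TXNIP itself, a larger rise than ARRDC4. As both the library and the leading gene were chosen on this contrast, these ranks are a description.

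**Figure D1:**
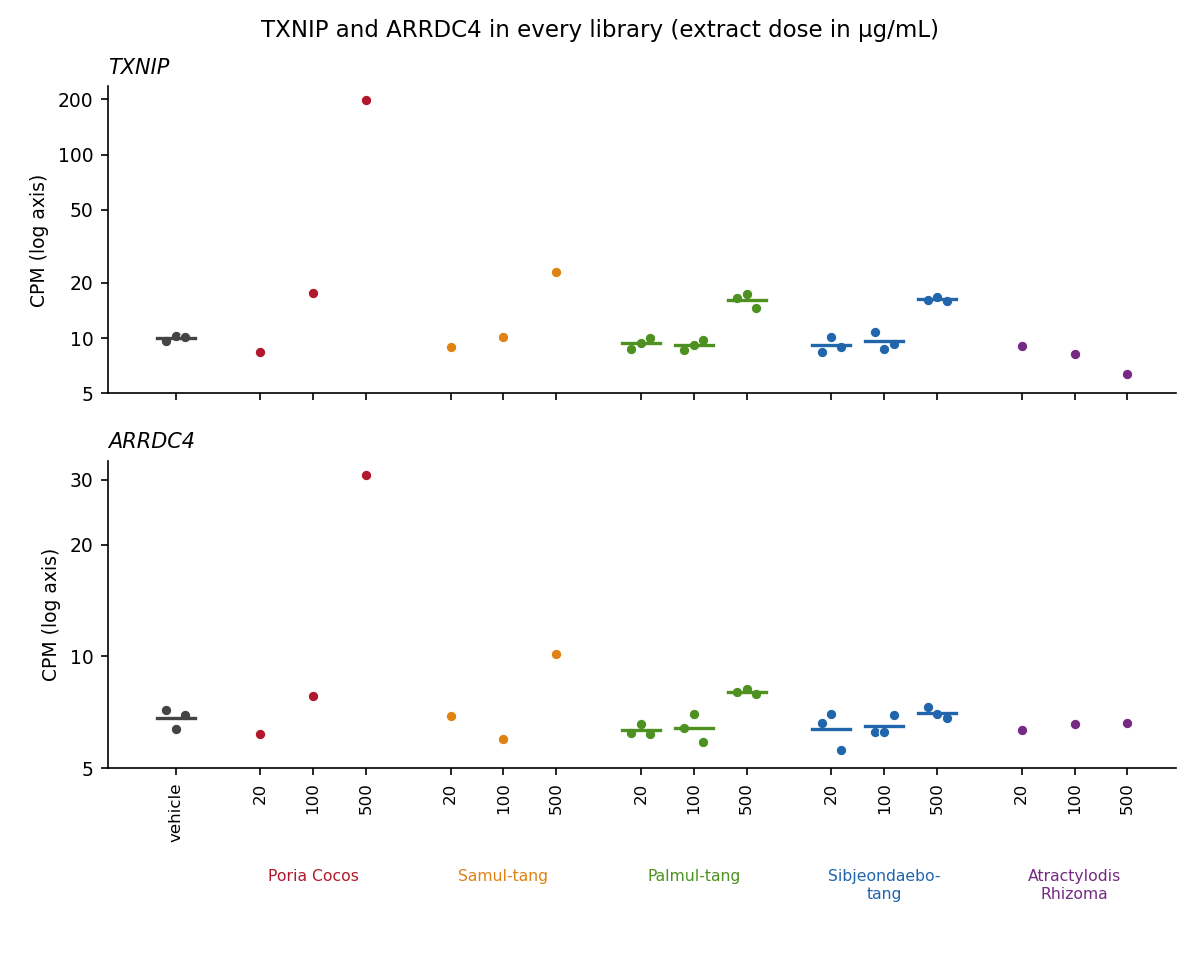
TXNIP and ARRDC4 in each of the 30 libraries, in CPM on a log axis, with the vehicle at the left and each extract at 20, 100 and 500 µg/mL. Points are libraries and short lines are means of 3; Poria Cocos at 500 µg/mL stands at 198 CPM for TXNIP and 30.9 CPM for ARRDC4, above all other libraries.

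The remaining members stayed close to their level at 20 µg/mL in the Poria Cocos library at 500. TXN, the cytosolic thioredoxin that TXNIP binds, had 223 CPM at 500 and 207 at 20 µg/mL, a ratio of 1.08, and TXN2, its mitochondrial relative, had 69.2 and 70.5 CPM. MLXIP had 50.2 CPM at 500 and 52.3 at 20 µg/mL, and MLX had 59.6 and 59.2 CPM. ARRDC3, an adaptor that brings ubiquitin ligases to adrenergic receptors, had 89.6 and 84.3 CPM, and ARRDC2, another alpha-arrestin, had 6.98 and 6.69 CPM. In GRCh38, TXN lies on chromosome 9 (110243811 to 110256640), TXN2 on chromosome 22 (36467036 to 36482030), MLXIP on chromosome 12 (122078722 to 122147347), MLX on chromosome 17 (42567068 to 42573239), ARRDC3 on chromosome 5 (91368724 to 91383359), ARRDC2 on chromosome 19 (18001132 to 18014102) and MLXIPL on chromosome 7 (73593194 to 73624543). Across the first 6 of these genes the ratios of 500 over 20 ran from 0.961 to 1.08. MLXIPL was near the floor of the data in every library, with at most 8 counts and between 0 and 0.331 CPM, so changes of MLXIPL were not detectable at this depth, and MLXIP was the sensor factor with a level that could be compared.

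The list of other MondoA and ChREBP targets held 23 genes, drawn up with earlier results of these data known. Of these 16 passed the filter, and 0 were past 1.5-fold in either direction between Poria Cocos at 500 and 20 µg/mL. The background was 9.26% of all tested genes, but 0.605% of those that averaged 2 or more in log2 CPM. Most of the 16 are that abundant, so the count of 0 is near the share there and says little. The median log2 difference of the 16 was 0.037, and that of all tested genes was -0.00057. The highest were TKT, the transketolase of the pentose phosphate pathway, with 636 CPM at 500 and 501 at 20 µg/mL (1.27-fold), TKFC, a triose kinase, with 13.02 and 10.31 CPM (1.26-fold), the ketohexokinase gene KHK, with only 0.584 and 0.473 CPM (1.20-fold), and the early response factor KLF10, with 99.1 and 83.1 CPM (1.19-fold). The lowest was SCD, the stearoyl-CoA desaturase, with 226 and 278 CPM. Fatty acid synthase FASN (264.5 and 270.3 CPM), hexokinase HK2 (55.9 and 57.7 CPM) and PFKFB3, which makes an activator of glycolysis (84.7 and 84.6 CPM), differed little between the doses. The liver genes PKLR, G6PC1 and FGF21 were at 0 in both libraries, and SLC2A2, RGS16 and GPD1 were among those too low to pass the filter.

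Neighbouring lists were set beside it for Poria Cocos at 500 over 20 µg/mL. The shares past 1.5-fold were again 9.26% of all tested genes and 0.605% of those that averaged 2 or more in log2 CPM. SLC2A1, the main glucose transporter of cultured cells, had 176 CPM at 500 and 181 at 20 µg/mL, and SLC2A3, another glucose transporter, had 34.05 and 34.13 CPM. Of 9 HECT ubiquitin ligases, the partners of alpha-arrestins, of 9 tested genes of the MYC, MAX and MLX network, of 3 other arrestins and of 13 FOXO and glucocorticoid responsive genes, 0 were past 1.5-fold. Of 10 thioredoxin reductases, peroxiredoxins and sulfiredoxin 0 were past it as well, with the highest at 1.41-fold: the thioredoxin reductase TXNRD1 had 443 CPM at 500 and 313 at 20 µg/mL.

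**Figure D2:**
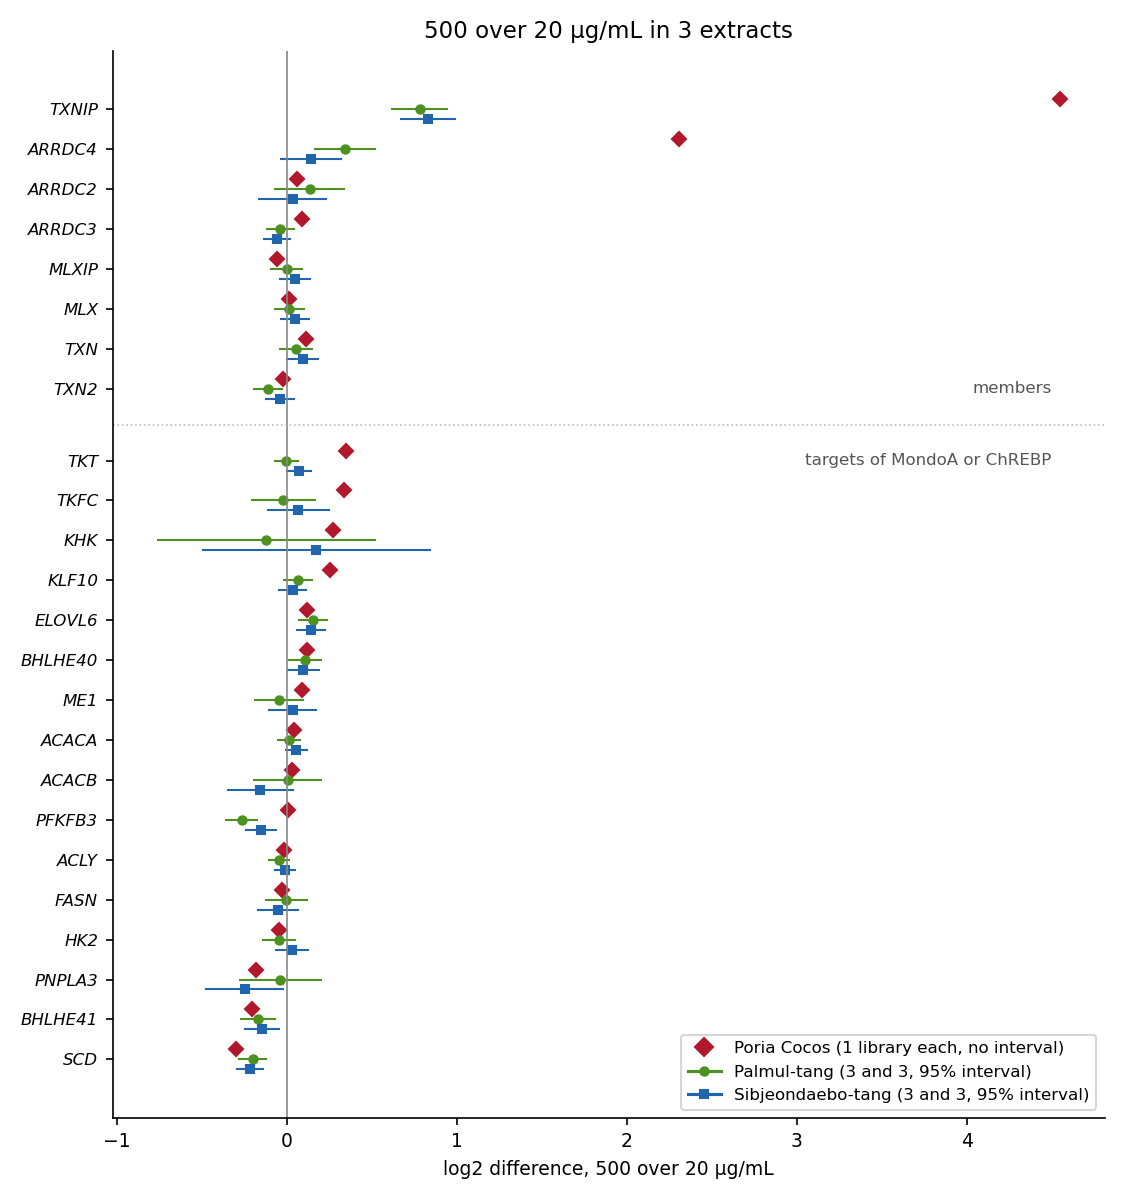
The log2 difference of 500 over 20 µg/mL on the x axis for 8 members and 16 listed targets of MondoA or ChREBP on the y axis. Diamonds are Poria Cocos with 1 library at each dose, and circles and squares are edgeR log2 fold changes of Palmul-tang and Sibjeondaebo-tang with 95% intervals; TXNIP and ARRDC4 lie at 4.55 and 2.31 in Poria Cocos and the targets between -0.30 and 0.34.

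The genes that share the paired motif with TXNIP were set beside it. The 20 windows belonged to 20 genes, of which 16 were tested. Between Poria Cocos at 500 and 20 µg/mL the log2 differences of the other 15 ran from -0.42 to 0.30. TXNIP, which chose the set, was the only one past 1.5-fold, beside 9.26% of all tested genes. The share was 0.605% among genes that averaged 2 or more in log2 CPM. Most of the 16 are that abundant, so the other 15 staying under the fold says little. GFPT1, the entry enzyme of the hexosamine pathway, had 99.3 CPM at 500 and 98.2 at 20 µg/mL, and RAN, a GTPase of nuclear transport, had 311 and 289 CPM. At 500 over 20 µg/mL 2 of the 16 were called in Palmul-tang and 2 in Sibjeondaebo-tang, beside 5.3% and 6.24% of all tested genes. In Palmul-tang these were TXNIP and P4HA1, which had a log2 fold change of -0.25 (edgeR, adjusted p = 3.77e-06).

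**Figure D3:**
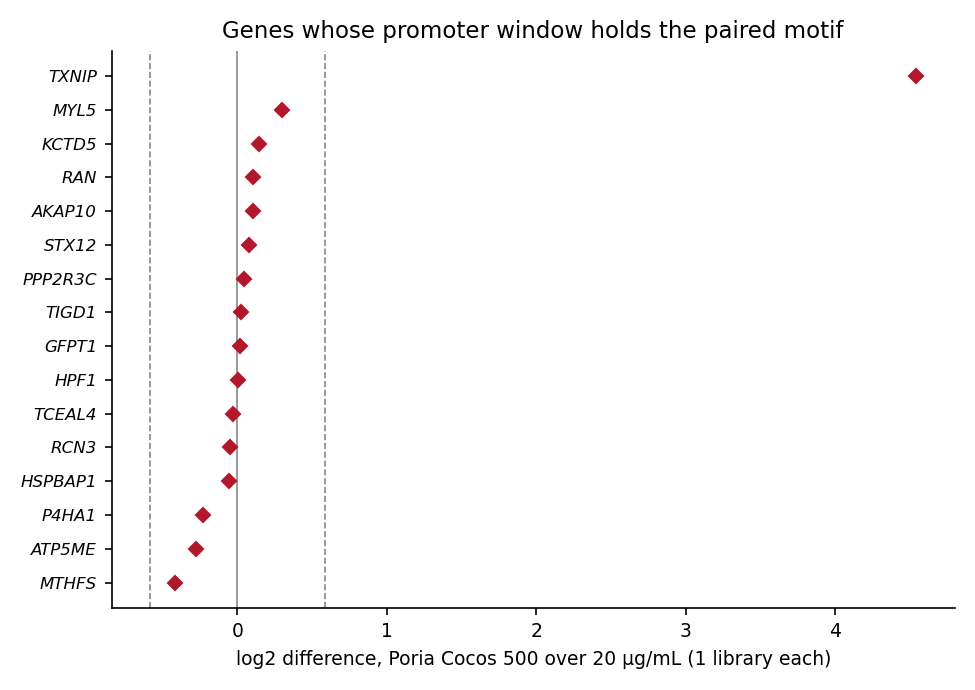
The log2 difference of Poria Cocos at 500 over 20 µg/mL, with 1 library at each dose, for the 16 tested genes whose promoter window holds the pair of CACGNG copies. Dashed lines mark 1.5-fold either way; TXNIP lies at 4.55 and the other 15 genes lie between the lines.

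The other extracts with 1 library per dose differed from Poria Cocos. With Samul-tang TXNIP had 8.99 CPM at 20 µg/mL, 10.2 at 100 and 22.9 at 500, and the interval at 500, 21.1 to 24.9 CPM, lay above all vehicle libraries. Its ratio of 500 over 20 was 2.54, and it was the only one of the 8 tested members past 1.5-fold, at a background of 10.2% (10.6% against the vehicle mean, where again TXNIP alone was past it). Among genes that averaged 2 or more in log2 CPM, as these members do, 0.691% were past 1.5-fold at 500 over 20 in Samul-tang. ARRDC4 had 6.92 CPM at 20, 5.98 at 100 and 10.1 at 500 µg/mL, and its log2 difference of 500 over 20 was 0.55, just under that fold. Against the vehicle mean its log2 difference was 0.57, and 0.60 without the first vehicle library, which is past 1.5-fold. With Atractylodis Rhizoma TXNIP had 9.06 CPM at 20, 8.175 at 100 and 6.41 at 500 µg/mL, the lowest value of the study. No member was past 1.5-fold between 500 and 20 µg/mL at a background of 9.26%, and against the vehicle mean, at 10.1%, TXNIP alone was, 0.643 times as high. Of the genes that averaged 2 or more in log2 CPM, 0.285% were past 1.5-fold at 500 over 20 in Atractylodis Rhizoma. A count of no member there is near that share and says little. At 100 over 20 µg/mL no member was past it in either extract, with backgrounds of 8.41% in Atractylodis Rhizoma and 9.45% in Samul-tang.

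In Palmul-tang, which had replicates, TXNIP and ARRDC4 were both higher at 500 than at 20 µg/mL. TXNIP had 16.5, 17.4 and 14.6 CPM at 500 µg/mL, against 8.72, 9.42 and 10.0 CPM at 20, and the groups do not overlap. The log2 fold change was 0.78 ± 0.079 (SE, n = 3 each, edgeR's quasi-likelihood test, adjusted p = 5.8e-09). ARRDC4 had 8.03, 8.15 and 7.90 CPM at 500 µg/mL, against 6.22, 6.57 and 6.19 at 20, again without overlap, and rose by 0.34 ± 0.087 on the log2 scale (edgeR, adjusted p = 0.0133). These were 2 of the 8 tested members, and 5.3% of all tested genes were called in this comparison. The ARRDC4 call did not hold with the Wald test of DESeq2 (adjusted p = 0.07) or in edgeR without the first library at 20 µg/mL (0.0564), the third at 20 (0.0593) or the second at 500 (0.053). For the other 6 tested members the 95% intervals of the log2 fold change lay between -0.19 and 0.34.

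Sibjeondaebo-tang gave TXNIP levels of 16.13, 16.66 and 16.02 CPM at 500 µg/mL, against 8.444, 10.11 and 8.915 at 20. It rose by 0.83 ± 0.078 on the log2 scale (SE, n = 3 each, edgeR, adjusted p = 7.49e-10). ARRDC4 had 7.285, 6.985 and 6.841 CPM at 500 µg/mL, against 6.597, 6.975 and 5.576 at 20; the groups overlap, and its log2 fold change of 0.14 had a 95% interval of -0.035 to 0.32 (edgeR, adjusted p = 0.44). TXNIP was the only called member, beside 6.24% of all tested genes. The intervals of the 6 members other than TXNIP and ARRDC4 lay between -0.17 and 0.23. Whether the change of ARRDC4 differed between the formulas was tested directly: the difference, Sibjeondaebo-tang minus Palmul-tang, was -0.20 with an interval of -0.45 to 0.052 (edgeR, adjusted p = 1). For TXNIP it was 0.049 with an interval of -0.18 to 0.28. In that test 0% of genes were called, with 716 at an unadjusted p under 0.05, and at 500 µg/mL in Sibjeondaebo-tang over Palmul-tang it was also 0%, with 863. DESeq2 called 0 genes in the first of these and 2 in the second, none of them a member.

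At 100 over 20 µg/mL no member was called in either formula, where 0.163% of genes were called in Palmul-tang and 0.207% in Sibjeondaebo-tang. TXNIP averaged 9.18 ± 0.56 CPM at 100 µg/mL and 9.39 ± 0.66 at 20 in Palmul-tang, and 9.62 ± 1.06 at 100 and 9.16 ± 0.86 at 20 in Sibjeondaebo-tang (SD, n = 3 each). Ordered over all 16 groups, TXNIP was highest in Poria Cocos at 500 µg/mL (198 CPM), then in Samul-tang at 500 (22.9), Poria Cocos at 100 (17.7), and Sibjeondaebo-tang and Palmul-tang at 500 (16.3 ± 0.341 and 16.2 ± 1.44 CPM), which did not differ beyond their spread. The next 10 groups, vehicle among them at 10.0 ± 0.309 CPM, lay between 8.175 and 10.2 CPM, and Atractylodis Rhizoma at 500 was the lowest. Samul-tang at 500 µg/mL was above Palmul-tang and Sibjeondaebo-tang at the same dose, with 1 library and another code set in its sample name. Extract and handling thus cannot be told apart there.

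The listed MondoA and ChREBP targets split in the formulas. Of the 16 tested, Palmul-tang at 500 over 20 µg/mL had 1 that rose and 3 that fell, and Sibjeondaebo-tang 1 and 2, beside 2.83% up and 2.47% down among all tested genes in Palmul-tang and 3.45% and 2.79% in Sibjeondaebo-tang. ELOVL6, a fatty acid elongase, rose 1.11-fold in Palmul-tang and 1.101-fold in Sibjeondaebo-tang (edgeR, adjusted p = 0.02 and 0.0319). SCD fell by 0.20 and 0.22 on the log2 scale (adjusted p = 0.00053 and 0.00016), and PFKFB3 fell by 0.27 and 0.15 (adjusted p = 6e-05 and 0.0261). BHLHE41, a clock-linked repressor, fell by 0.17 in Palmul-tang (adjusted p = 0.0369) and had a log2 fold change of -0.15 in Sibjeondaebo-tang (adjusted p = 0.0757). The median of the list was -0.030 in Palmul-tang and 0.031 in Sibjeondaebo-tang.

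TXNRD1 rose 1.16-fold in each formula (edgeR, adjusted p = 3.87e-05 in Palmul-tang and 2.89e-05 in Sibjeondaebo-tang), and was the only one of its 10 tested genes to rise; PRDX6 fell by 0.13 in Palmul-tang. In the MYC, MAX and MLX network MYC rose 1.20-fold and 1.15-fold, and MXD4 fell by 0.21 in Sibjeondaebo-tang. Of the HECT ligases NEDD4 rose 1.11-fold in Palmul-tang and SMURF1 rose 1.14-fold in Sibjeondaebo-tang, 1 of 9 each. SLC2A6, a glucose transporter of inner membranes, rose 1.23-fold and 1.28-fold, while SLC2A12 fell by 0.64 in Sibjeondaebo-tang. Of 13 FOXO and glucocorticoid responsive genes 0 rose and 2 fell in each formula: FOXO1 fell by 0.41 and 0.57, TSC22D3 fell by 0.25 in Palmul-tang and IRS2 fell by 0.21 in Sibjeondaebo-tang. Of 3 other arrestins 0 were called. Beside these counts at 500 over 20 µg/mL, 2.83% of all tested genes rose and 2.47% fell in Palmul-tang. In Sibjeondaebo-tang the shares were 3.45% and 2.79%.

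Against vehicle, a different group of members stood out, and it did so already at 20 µg/mL. ARRDC3 averaged 81.7 ± 0.979 CPM with Palmul-tang at 20 µg/mL and 66.5 ± 3.17 CPM in vehicle (SD, n = 3 each), a log2 fold change of 0.30 ± 0.04 (SE, edgeR, adjusted p = 1.21e-06), and in Sibjeondaebo-tang at 20 µg/mL it averaged 82.8 ± 1.04 CPM (adjusted p = 3.42e-07). Of the 8 tested members, ARRDC3 and TXN were higher and MLXIP and TXN2 lower than vehicle at 20 µg/mL in both formulas, where 23.8% of genes were called in each. At 500 µg/mL these 4 and TXNIP were called in both formulas, with 27.8% of genes called in Palmul-tang and 25.1% in Sibjeondaebo-tang. Each comparison with vehicle uses the same 3 vehicle libraries. TXNIP at 500 µg/mL was above vehicle by 0.69 ± 0.08 in Palmul-tang (edgeR, adjusted p = 4.19e-08) and 0.70 ± 0.079 in Sibjeondaebo-tang (adjusted p = 2.33e-08). ARRDC4 in Palmul-tang at 500 µg/mL had a log2 fold change of 0.23 over vehicle, uncalled here (edgeR, adjusted p = 0.0503) but called with DESeq2's size factors (0.0484) and in a fit on the compared groups alone (0.0372).

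TXN had 212, 200 and 213 CPM with Palmul-tang at 20 µg/mL, against 181, 201 and 170 CPM in vehicle, and these groups overlap. TXN2 had 75.7, 72.2 and 75.2 CPM with Palmul-tang at 20 µg/mL, against 79.9, 79.7 and 86.1 in vehicle. MLXIP had 52.2, 55.7 and 53.9 CPM in the same treated libraries, against 58.9, 56.9 and 62.5 in vehicle, and neither gene's groups overlap. Log2 fold changes of these genes were between -0.25 and 0.23 in the 4 comparisons, and several rest on single libraries. Without the third vehicle library MLXIP was no longer called in Palmul-tang at 500 µg/mL (adjusted p = 0.125), in Palmul-tang at 20 (0.15) and in Sibjeondaebo-tang at 500 (0.122), nor TXN2 in Palmul-tang at 20 (0.114) or TXN in Sibjeondaebo-tang at 20 (0.179). MLXIP was also lost without the first library of Palmul-tang at 20 (0.0829) or the second of Sibjeondaebo-tang at 500 (0.103), TXN2 without the second of Palmul-tang at 20 (0.0581), and TXN in Sibjeondaebo-tang at 20 without the first vehicle library (0.0983) or with its own replicate 2 (0.128) or replicate 3 (0.0514) left out. In fits on the compared groups alone the calls of TXN at 20 µg/mL in Palmul-tang (edgeR, adjusted p = 0.0775) and Sibjeondaebo-tang (0.0786) and of MLXIP in Sibjeondaebo-tang at 500 (0.07) were lost as well. The sample titles place every library, vehicle and treated, in BatchC. All vehicle libraries carry a code set in their sample names that no treated library has, so treatment and handling cannot be told apart in any comparison with vehicle. What the code sets stand for is not given in the labels. The code sets also differ between Samul-tang, both larger formulas, and the pair of Poria Cocos and Atractylodis Rhizoma. Extract and handling cannot be told apart between these sets either. Between 500 and 20 µg/mL none of ARRDC3, MLXIP, TXN and TXN2 was called in either formula in the fit on all libraries. TXN2 had 70.3, 69.2 and 67.2 CPM at 500 µg/mL of Palmul-tang, against 75.7, 72.2 and 75.2 at 20, without overlap, and its log2 fold change of -0.11 (edgeR, adjusted p = 0.122) was called in a fit on the compared groups alone (adjusted p = 0.0434).

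**Figure D4:**
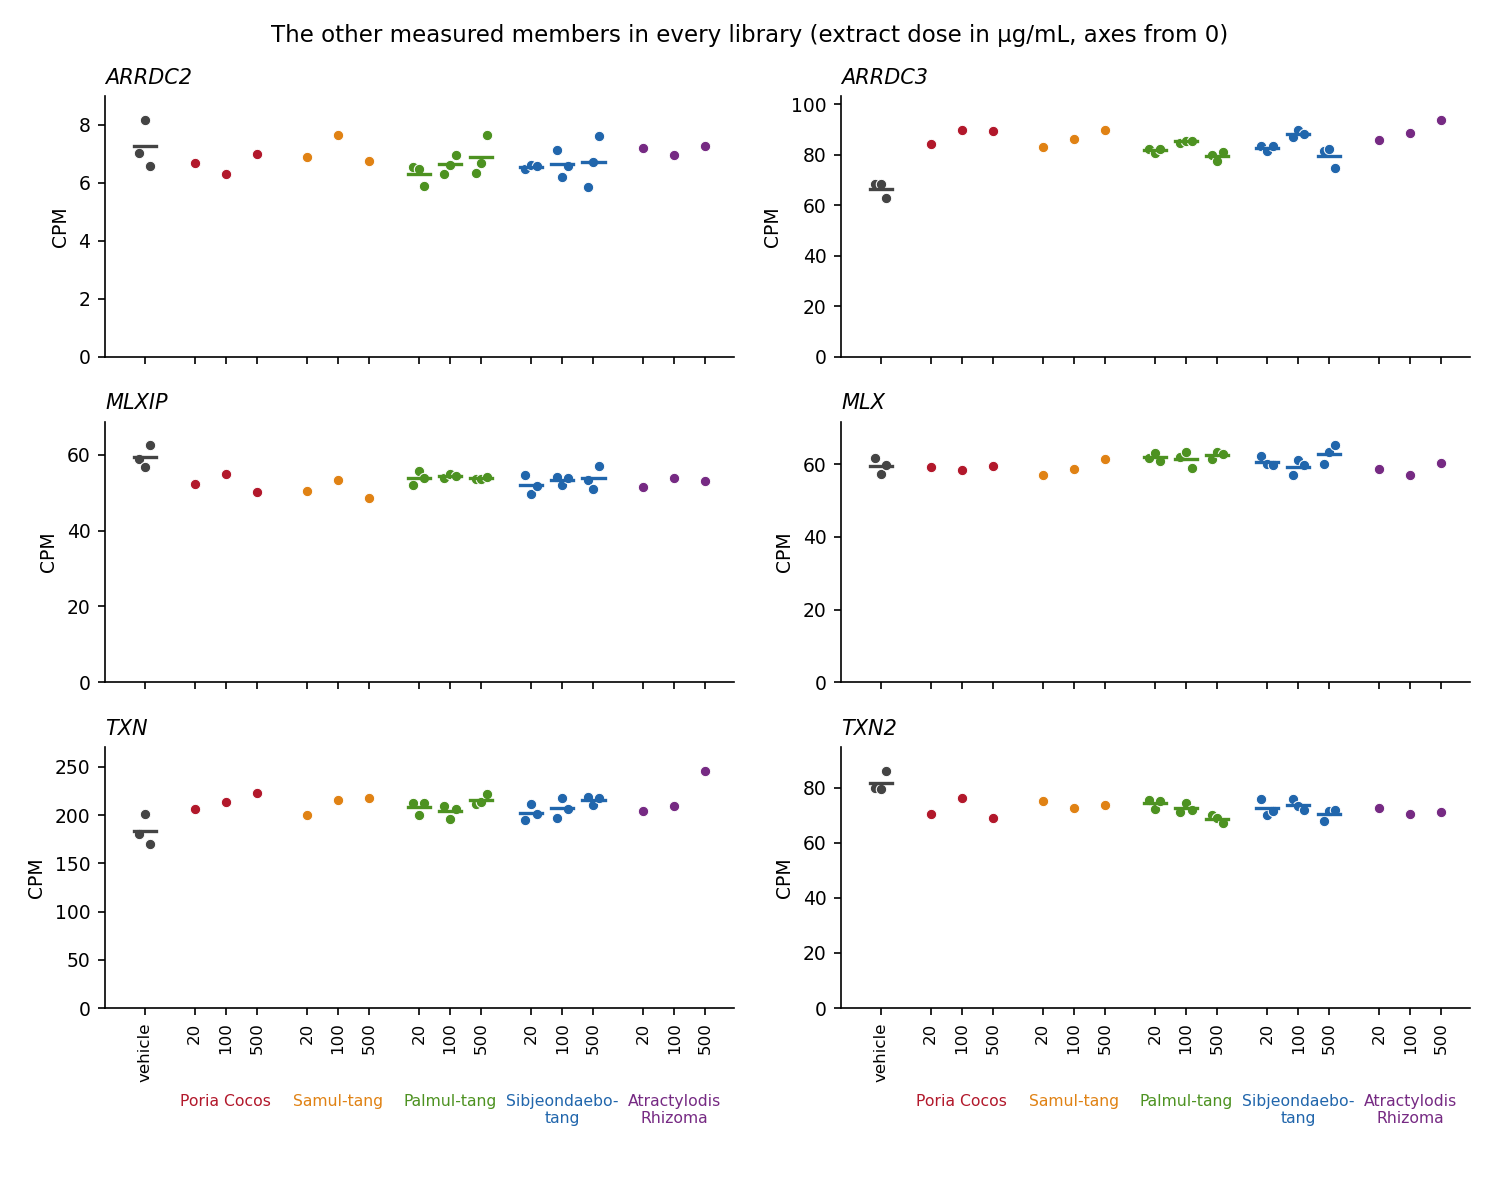
The 6 other tested members in each of the 30 libraries, in CPM on axes that start at 0, with the vehicle at the left and each extract at 20, 100 and 500 µg/mL. Points are libraries and short lines are means of 3; all treated libraries lie above the vehicle for ARRDC3, which has 74.9 to 93.9 CPM in treated cells and 62.9 to 68.5 CPM in vehicle.

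Per kilobase of exon, TXN was the most abundant member, with a median over libraries of 184 CPM per kilobase, then TXN2 with 35.2, ARRDC3 with 16.9, MLX with 14.1, MLXIP with 3.87, TXNIP with 2.72, ARRDC4 with 1.65, ARRDC2 with 1.44 and MLXIPL with 0.034. MLX was the steadiest, with a largest group mean only 1.103 times its smallest. ARRDC2 and MLX were called in no comparison. Over the log2 group means TXNIP spanned 4.93 and ARRDC4 2.36, more than 99.9% of 10291 genes, and the next member, ARRDC3, 0.50. The spans of TXNIP and ARRDC4 both end in the single Poria Cocos library at 500 µg/mL. The set was chosen on that library, so their ranks are a description. Reads of ARRDC2, ARRDC3 and MLX cannot be told from those of a gene on the other strand where exons overlap, by 442, 145 and 770 bases, because the counting strand is not given.

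The genes whose pattern was most like that of TXNIP were ranked by Pearson's r over 16 group means, among the 10264 named genes that averaged 3 or more in log2 CPM. The first 8 were LRRC8D, AHCYL1, DNAJB6, CAPRIN1, ERBIN, GTPBP4, DROSHA and MALT1, with r from 0.8651 to 0.9185. Their excursions were small: LRRC8D, a subunit of volume-regulated anion channels, had 94.2 CPM in Poria Cocos at 500 µg/mL, against 82.7 CPM at 20. ARRDC4, too low for that ranking, had an r of 0.973 with TXNIP. All these values share the one library that holds the extreme point: without it, over 15 group means, r was 0.839 for ARRDC4 and 0.891 for LRRC8D, and 0.5595 for AHCYL1, and 2 of the 8 were among the 50 highest. The other tested members had r between -0.356 and 0.255 over 16 group means.

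Of 9 markers of the labelled astrocytic origin, GFAP, AQP4, S100B and ALDH1L1 reached at most 0.183 CPM and SLC1A2 at most 0.522. VIM had 4390 to 5674 CPM, SLC1A3 20.6 to 28.0, GLUL 45.4 to 59.1 and NES 5.25 to 8.11. GLUL fell between 500 and 20 µg/mL in both formulas, by 0.19 in Palmul-tang and 0.22 in Sibjeondaebo-tang, as did SLC1A3 in Sibjeondaebo-tang by 0.22, these being 1 and 2 of the 5 tested of that list. Among all tested genes 2.47% fell in Palmul-tang and 2.79% in Sibjeondaebo-tang. MBP, of the 3 oligodendrocyte markers, rose 1.31-fold and 1.48-fold, and MOG was at 0 in 29 libraries. No neuron, leukocyte or endothelial marker that could be tested was called in these comparisons. Some were not low: the neuron markers SYT1 and SNAP25 had 31.9 to 43.5 and 19.3 to 26.0 CPM, while RBFOX3 reached at most 0.396. The leukocyte marker PTPRC had 8.07 to 12.55 CPM, while CD14 reached at most 0.593 and CD3E at most 0.0352. Between Poria Cocos at 500 and 20 µg/mL CD14 was the one tested marker of these lists past 1.5-fold, with 0.162 and 0.304 CPM. Their part in the results above was not tested. Total counts per library, in units of 1000000, ran from 22.57 to 37.82. Separate cultures for the libraries of 1 group are stated nowhere in the labels, so p-values measure the spread between these libraries, which may be technical, and in bulk RNA fewer cells of a type and less RNA per cell cannot be told apart.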

How the data were processed

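The authors deposited expected counts, estimated for each gene with RSEM 1.3.3 per the submitters' processing notes; 24% of the nonzero values were not whole, and all were rounded here. The same notes name FastQC 0.11.9, Trim Galore 0.6.5, STAR 2.7.3a and hg38; the annotation release, counting strand and filters are not given in the sources used here. Of 279 columns 30 were used and 249 were left out. Symbols and positions came from GENCODE release 29. The filterByExpr function kept 17839 genes; 8 of 9 members passed, and MLXIPL did not. With edgeR 4.0.16 (R 4.3.3), TMM factors and a robust quasi-likelihood fit gave each of 16 groups its own mean, with p-values adjusted over all tested genes by Benjamini-Hochberg at 0.05 for each of 10 comparisons, and SE derived from the F statistic. The fit was tested on simulated counts. Single libraries were described by differences of log2 CPM with a prior count of 2, with 1.5-fold as the mark and no test. Levels per kilobase use merged exon length. Alternatives were size factors and the Wald test of DESeq2 1.42.0, no filter, fits on the compared groups, a replicate block, each library left out, another prior count and another reference dose. Libraries of a group differed by more than sampling noise (chi-square per gene at least 2.14), so all were counted. All 9 members are named, with up to 4 genes per list by smallest p in either formula at 500 over 20 µg/mL and the 8 genes most like TXNIP; genes of single libraries in the lists, and those with the paired motif, were named after their values were seen. Members and lists were chosen with earlier results of these data known. Some genes of the lists are not reported here.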

Additional observations from a re-analysis of the deposited data

How the results depend on the processing

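TXNIP at 500 over 20 µg/mL kept its direction and its call in both formulas under all 11 alternatives, with log2 fold changes of 0.72 to 0.85 in Palmul-tang and 0.77 to 0.91 in Sibjeondaebo-tang. The number of members called in Palmul-tang at 500 over 20 µg/mL was 2, and 1 with the Wald test of DESeq2; with a library left out it was 1 to 2. In Palmul-tang at 20 µg/mL over vehicle it was 4, and 2 to 4 with a library left out. For Samul-tang the number past 1.5-fold was 1, and 2 with the mean of 20 and 100 µg/mL as the reference, and was 1 to 2 with a vehicle library left out. Of the 8 genes most like TXNIP, 3 were among the 50 highest by Spearman's rho, 2 without Poria Cocos at 500 µg/mL and 2 without Poria Cocos at any dose; the last 2 settings were chosen after seeing the data. The causes of these moves were not tested. No called member reversed its direction. In no comparison did every same-numbered pair of libraries deviate together with a correlation over 0.1 (lowest -0.0998, highest 0.179). That mark cannot exclude pairing. In Sibjeondaebo-tang at 100 over 20 µg/mL same-numbered pairs had 0.078 to 0.124 and other pairs -0.111 to 0.026. Same-numbered libraries of both formulas also share a code set in their sample names. With the replicate block 3 members were called in Palmul-tang at 500 over 20 µg/mL, 6 over vehicle, and 3 at 20 over vehicle. The block added TXN2 to the first of these (adjusted p = 0.028) and ARRDC4 to the second (0.047), and took TXN from the third (0.16) and MLXIP from Sibjeondaebo-tang at 500 over vehicle (0.0519). Over all genes, calls at 500 over 20 µg/mL numbered 946 in Palmul-tang and 1694 with the block, and 1113 in Sibjeondaebo-tang and 636 in a fit on the compared groups alone. At 100 over 20 µg/mL they numbered 29 in Palmul-tang, 51 without the filter and 73 with the block, and 37, 63 and 57 in Sibjeondaebo-tang. Without the filter 9 genes were called between the formulas at 500 µg/mL and 12 in the difference of their changes, where the fit with the filter called 0. Depth limits MLXIPL, with at most 8 counts.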
